A study of Homo sapiens with 6 samples.

Results

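The genes of the tricarboxylic acid (TCA) cycle, together with the malic enzymes and the enzymes through which pyruvate and glutamine carbon enter the cycle, were followed in Caki2 cells with and without PBRM1. The set was a list of 32 gene symbols, and all 32 were found among the 25369 genes of the deposited files. Of these, 27 encode proteins that work in mitochondria and 5 encode cytosolic enzymes (ACO1, IDH1, MDH1, ME1 and GOT1), and the rise or fall of both kinds was compared. Caki2 is a human kidney carcinoma line used as a model of clear-cell renal cell carcinoma (ccRCC). It makes no PBRM1 protein, PBRM1 being a subunit of the PBAF chromatin remodeling complex. One line carried an empty doxycycline-inducible lentiviral vector (Caki2+Vector) and the other the same kind of vector bearing PBRM1 (Caki2+PBRM1), with 3 replicates of each (A, B and C). Both lines were kept in doxycycline at 2 µg/mL and in medium supplemented with L-glutamine. As far as the labels show, each group is a single stably transduced line, so an effect of PBRM1 and any other difference between the lines cannot be told apart.

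In the TCA cycle, acetyl-CoA made from pyruvate is joined to oxaloacetate to give citrate, which is oxidised back to oxaloacetate while NADH and succinate-linked electrons pass to the respiratory chain. Glutamine carbon enters as 2-oxoglutarate, and pyruvate carboxylase and the malic enzymes fill or drain the cycle. Several steps have a mitochondrial enzyme and a cytosolic twin, and shuttles of malate, aspartate, citrate and 2-oxoglutarate join the compartments. The cycle matters in the kidney because loss of FH or of an SDH subunit predisposes to kidney tumors, and because most ccRCC has active hypoxia-inducible factors (HIF), which turn pyruvate away from the cycle.

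Each sample held between 7312955 and 10835355 reads on genes, and the deposited value of a gene is its number of reads divided by a size factor for the sample, called here a normalized count. The scale is relative, so it does not show whether a cell held more or less RNA in total. It is not a share of all reads either, because the size factors do not follow the read totals exactly. PBRM1 mRNA averaged 187 ± 7.37 normalized counts (SD, n = 3) with the empty vector and 2545 ± 127 (SD, n = 3) with the PBRM1 vector, which matches the labels of all 6 samples. Of 8 markers of kidney epithelium and ccRCC, PAX8, KRT8, KRT18, CDH16 and VIM were well above the filter in every sample, PAX2 and EPCAM were low, and CA9 was at most 2.83 normalized counts in Caki2+Vector and between 6.71 and 15.2 in Caki2+PBRM1. Markers of other cells were at or near 0, with CD3E, CDH5 and ALB at 0 in every sample, PECAM1 at most 2.67, and the leukocyte marker PTPRC between 3.78 and 5.68 in Caki2+Vector and at most 1.08 in Caki2+PBRM1. Among the epithelial markers KRT8 and KRT18 fell, with log2 fold changes of -0.18 at an adjusted p of 0.000209 and -0.34 at an adjusted p of 1.74e-07, and CDH16 and the mesenchymal marker VIM rose, with 0.40 at an adjusted p of 2.56e-05 and 0.18 at an adjusted p of 3.45e-05; the part of these shifts in the other results was not tested. Caki2+Vector replicate A stood apart from replicates B and C of its group, with a chi-square per degree of freedom of 3.09 and 2.84 against them, where B and C gave 1.34 against each other and the Caki2+PBRM1 replicates at most 1.22. Where leaving out replicate A changed the call of a member, the value without it is printed too.

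PBRM1 re-expression was accompanied by lower mRNA of 11 of the 32 genes and higher mRNA of 2, as tested by limma on log2(normalized count + 1), with p-values adjusted over all 13303 genes tested and a threshold of 0.05. These 13 members were 40.6% of the set, beside 29.2% of all genes called in either direction. The genes that fell were CS, IDH3B, SUCLG2, SDHB, SDHD, DLAT, ME2, ME3, GLUD1, GOT1 and SLC25A11, and those that rose were IDH2 and DLD. The share of members that fell was 34.4%, beside 13% of all genes tested and 14.2% of the genes whose mean level lay between those of the lowest and highest member. That range, from 46.3 to 3071 normalized counts, held 10718 of the 13303 genes, so it matches level only loosely. The share that rose was 6.25%, beside 16.2% of all genes tested and 16.4% of the genes in that range of levels. Apart from ME3, which fell by 60.1%, the changes past the threshold were small, from a fall of 19.8% for ME2 to a rise of 25.7% for IDH2. The median log2 fold change over the 32 members was -0.10, beside -0.0036 over all genes tested. Of the members 25 (78.1%) were below 0, beside 50.6% of all genes tested. The 19 members that did not pass the test had log2 fold changes from -0.18 (SUCLA2) to 0.14 (SLC25A1), with a median SE of 0.056. Over all 32 members the median SE was also 0.056, beside 0.083 over all genes tested, so the same change gives a smaller p-value in a typical member. Values of the 2 groups did not overlap for 14 members that were lower and 3 that were higher in Caki2+PBRM1, shares of 43.8% and 9.38% beside 19.6% and 22.1% of all genes tested. Counts from other fits were close. With edgeR on the recovered reads 2 members rose and 11 fell, where 30.3% of all genes were called (16.5% higher and 13.8% lower). With the replicate block the numbers were also 2 and 11, where 30.9% were called (16.9% higher and 14% lower). With DESeq2 1 rose and 10 fell, where 19.2% were called (11.2% higher and 7.95% lower). For a gene whose groups did not overlap the exact permutation test over 3 against 3 samples gives p = 0.1, the smallest it can give.

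**Figure D1:**
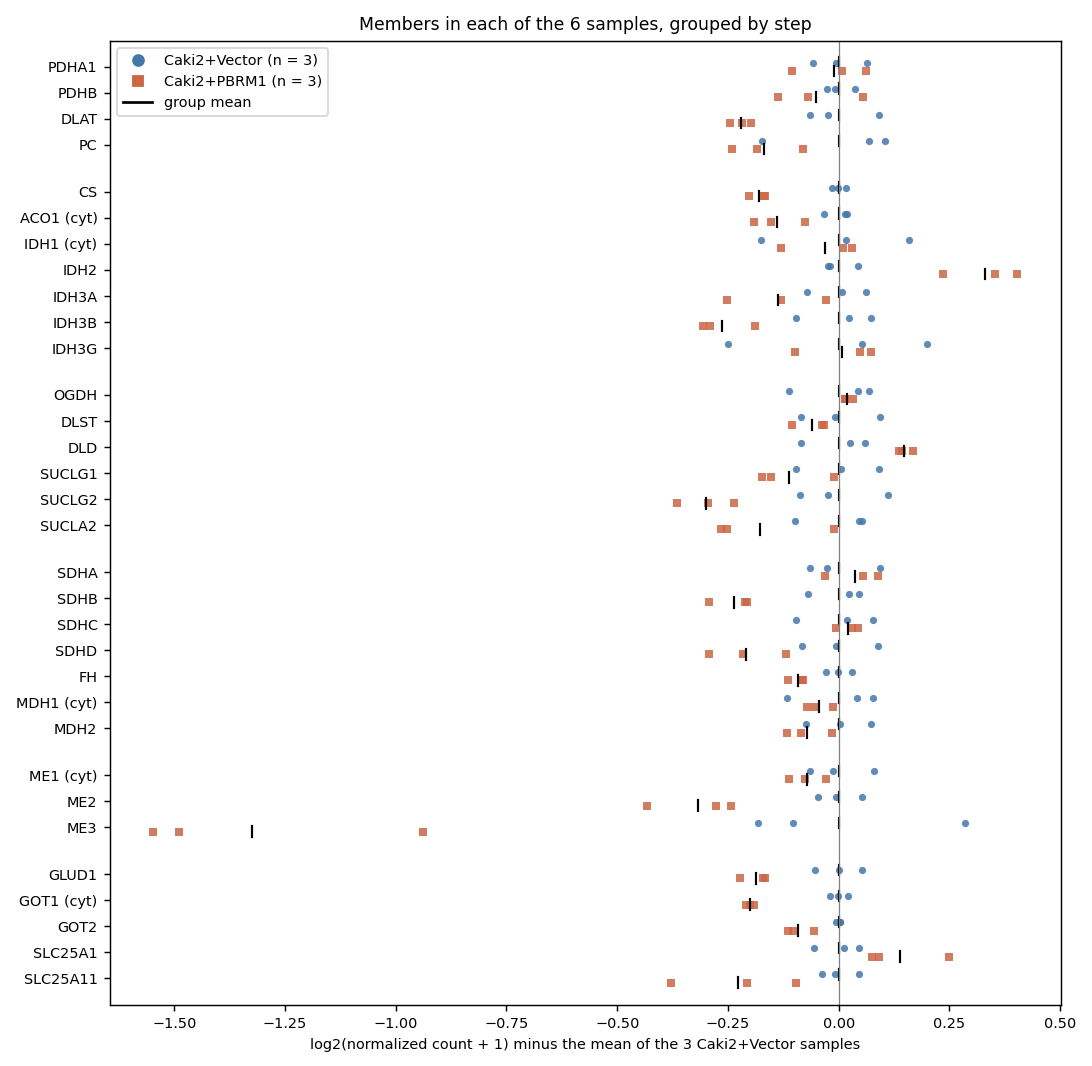
Each point is a sample, placed by its log2(normalized count + 1) minus the mean of the 3 Caki2+Vector samples, with the 32 genes in rows grouped by step of the pathway and black ticks at the group means. ME3 lies far to the left in all 3 Caki2+PBRM1 samples, IDH2 to the right, and most other Caki2+PBRM1 points sit slightly left of 0.

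Levels differed widely among the members. Divided by the length of the canonical transcript, MDH1 was the most abundant in Caki2+Vector, with 1568 normalized counts per kb, followed by CS with 1119 and SDHB with 803. The lowest were ME2, with 58.3, and ME3, with 29.0 per kb. ME3 was thus the member with the largest change and the lowest level, and CS changed little but at a high level. Of the 32 genes, 15 have at least 1 pseudogene named after them in the annotation, and 6 were named for each of GLUD1, GOT2 and SDHD. Reads shared with such copies could have been dropped or split by the counting, which leaves the levels of these genes uncertain.

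Of the genes by which pyruvate enters the cycle, DLAT fell and the others did not pass the test. PDHA1 and PDHB encode the E1 component of the pyruvate dehydrogenase complex, which makes acetyl-CoA, DLAT its E2 component, and PC the pyruvate carboxylase that makes oxaloacetate. DLAT (chromosome 11, 111896132 to 111935128, plus strand of GRCh37, as for all positions given here) had 742, 666 and 686 normalized counts in Caki2+Vector replicates A, B and C and 599, 588 and 608 in Caki2+PBRM1 replicates A, B and C. All 3 Caki2+PBRM1 values lay below all 3 Caki2+Vector values, a log2 fold change of -0.22 with an SE of 0.057 (adjusted p = 0.00381). PDHA1 and PDHB had log2 fold changes of -0.012 at an adjusted p of 0.9 and -0.05 at an adjusted p of 0.619, with 95% intervals from -0.13 to 0.10 and from -0.19 to 0.085. The DLAT-to-PDHA1 ratio was 0.944, 0.877 and 0.83 in Caki2+Vector and 0.726, 0.741 and 0.828 in Caki2+PBRM1, so it was lower in every Caki2+PBRM1 sample (this ratio was chosen after its values were seen and not tested). The replicates C of the groups nearly tied, so the groups were barely apart. PC had 236, 286 and 279 normalized counts in Caki2+Vector and 234, 252 and 225 in Caki2+PBRM1. Replicate A of Caki2+Vector was as low as the Caki2+PBRM1 samples, and the log2 fold change of PC was -0.17 at an adjusted p of 0.144, or -0.26 (adjusted p = 0.0135) without that replicate. PC did not pass in the other 12 of the 13 alternative fits, with -0.12 (adjusted p = 0.405) without Caki2+Vector replicate B.

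From citrate to 2-oxoglutarate, CS and IDH3B fell while IDH2 rose. CS encodes citrate synthase, the entry enzyme of the cycle (chromosome 12, 56665483 to 56694175, minus strand). It had 3226, 3300.1 and 3256 normalized counts in Caki2+Vector and 2831, 2907 and 2903 in Caki2+PBRM1. The groups were well separated although the fall was only 11.7%, a log2 fold change of -0.18 with an SE of 0.037 (adjusted p = 0.000425). IDH3A, IDH3B and IDH3G encode the subunits of the NAD-dependent isocitrate dehydrogenase that drives the cycle forward. IDH3B (chromosome 20, 2639041 to 2644865, minus strand) had 897, 1007 and 973 normalized counts in Caki2+Vector and 839, 783 and 774 in Caki2+PBRM1. The log2 fold change came to -0.26 with an SE of 0.054 (adjusted p = 0.000412), with no overlap between groups. The catalytic subunit IDH3A had -0.14 at an adjusted p of 0.151 and IDH3G 0.0073 at an adjusted p of 0.965, with intervals from -0.28 to 0.0077 and from -0.18 to 0.20. The IDH3B-to-IDH3A ratio was 2.07, 2.41 and 2.46 in Caki2+Vector and 2.06, 2.25 and 2.04 in Caki2+PBRM1. These values overlapped, so IDH3B and IDH3A were not separated by these data (the ratio was not tested). IDH2, the mitochondrial NADP-dependent isocitrate dehydrogenase (chromosome 15, 90626277 to 90645709, minus strand), had 519.7, 496 and 497 normalized counts in Caki2+Vector and 667, 644 and 593 in Caki2+PBRM1. Every Caki2+PBRM1 sample was above every Caki2+Vector sample, and the level rose 1.26-fold, a log2 fold change of 0.33 with an SE of 0.06 (adjusted p = 9.2e-05). The cytosolic aconitase ACO1, which also acts as an iron-regulatory protein, had 542, 559 and 561 normalized counts in Caki2+Vector and 498, 525 and 485 in Caki2+PBRM1. These groups did not overlap either, but its log2 fold change was -0.14 at an adjusted p of 0.079, and -0.16 (adjusted p = 0.0395) without Caki2+Vector replicate A. ACO1 did not pass in the other 12 of the 13 alternative fits, with -0.11 (adjusted p = 0.27) without Caki2+PBRM1 replicate C. IDH1, the cytosolic and peroxisomal counterpart of IDH2, had 1065, 965 and 845 normalized counts in Caki2+Vector and 959.7, 974 and 871 in Caki2+PBRM1. Its groups overlapped, with a log2 fold change of -0.031 at an adjusted p of 0.782 and a 95% interval from -0.17 to 0.11.

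From 2-oxoglutarate to succinate, SUCLG2 fell and DLD rose. OGDH and DLST encode the E1 and E2 components of the 2-oxoglutarate dehydrogenase complex. DLD encodes the E3 component, which this complex shares with pyruvate dehydrogenase. OGDH and DLST had log2 fold changes of 0.02 at an adjusted p of 0.808 and -0.06 at an adjusted p of 0.425, with intervals from -0.082 to 0.12 and from -0.17 to 0.047. DLD (chromosome 7, 107531607 to 107572175, plus strand) had 961, 890.0 and 983 normalized counts in Caki2+Vector and 1037, 1059.5 and 1042 in Caki2+PBRM1. The groups were apart by a narrow margin, and the log2 fold change was 0.15 with an SE of 0.05 (adjusted p = 0.0256). This call did not hold in 6 of the 13 alternatives, among them DESeq2, with 0.15 (adjusted p = 0.0879), and the fits without Caki2+Vector replicate B, with 0.11 (adjusted p = 0.137), and without Caki2+PBRM1 replicate A, B or C, with 0.15 (adjusted p = 0.0674), 0.14 (adjusted p = 0.106) and 0.15 (adjusted p = 0.0764).

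Succinyl-CoA ligase pairs the shared alpha subunit SUCLG1 with a beta subunit, SUCLG2 in the GTP-forming enzyme and SUCLA2 in the ATP-forming one. SUCLG2 (chromosome 3, 67410884 to 67705036, minus strand) had 727, 634 and 662 normalized counts in Caki2+Vector and 548, 572 and 522 in Caki2+PBRM1. It was lower in every Caki2+PBRM1 sample, with a log2 fold change of -0.30 with an SE of 0.061 (adjusted p = 0.000361). SUCLA2 had 476, 478 and 430.3 normalized counts in Caki2+Vector and 387, 383 and 457 in Caki2+PBRM1. Caki2+PBRM1 replicate C overlapped the controls, and the log2 fold change was -0.18 at an adjusted p of 0.0661, or -0.26 (adjusted p = 0.0162) without that replicate and -0.23 (adjusted p = 0.0307) without Caki2+Vector replicate C. SUCLA2 did not pass in the other 11 of the 13 alternatives, with -0.13 (adjusted p = 0.279) without Caki2+PBRM1 replicate B. The SUCLG2-to-SUCLA2 ratio overlapped between the groups, so the subunits were not separated by these data. SUCLG1 had a log2 fold change of -0.11 at an adjusted p of 0.224.

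From succinate to oxaloacetate, 2 of the 4 subunits of succinate dehydrogenase (SDH, complex II of the respiratory chain) fell. SDHA carries the flavin and SDHB the iron-sulfur clusters, and SDHC and SDHD anchor the complex in the inner membrane. SDHB (chromosome 1, 17345159 to 17380527, minus strand) had 842, 828 and 777 normalized counts in Caki2+Vector and 665, 706 and 703 in Caki2+PBRM1. All Caki2+PBRM1 samples were lower, with a log2 fold change of -0.24 with an SE of 0.054 (adjusted p = 0.0012). SDHD (chromosome 11, 111957548 to 111990739, plus strand) had 721, 641 and 675 normalized counts in Caki2+Vector and 624, 554 and 583 in Caki2+PBRM1. It too was lower in all of them, with a log2 fold change of -0.21 with an SE of 0.061 (adjusted p = 0.00907), which was -0.17 (adjusted p = 0.0858) without Caki2+PBRM1 replicate B. SDHA and SDHC had log2 fold changes of 0.038 at an adjusted p of 0.648 and 0.022 at an adjusted p of 0.804, with intervals from -0.072 to 0.15 and from -0.089 to 0.13. The SDHB-to-SDHA ratio was 0.981, 0.888 and 0.93 in Caki2+Vector and 0.716, 0.777 and 0.822 in Caki2+PBRM1. The SDHD-to-SDHC ratio was 0.879, 0.88 and 0.856 in Caki2+Vector and 0.806, 0.691 and 0.734 in Caki2+PBRM1. Both ratios, chosen after their values were seen and not tested, were lower in every Caki2+PBRM1 sample. Fumarase, encoded by FH and made in a mitochondrial and a cytosolic form, had 971, 1011 and 989 normalized counts in Caki2+Vector and 915, 936 and 935 in Caki2+PBRM1. The groups of FH did not overlap, but its log2 fold change of -0.092 at an adjusted p of 0.157 did not pass. The mitochondrial malate dehydrogenase MDH2 had 931, 1031 and 982 normalized counts in Caki2+Vector and 969, 904 and 924 in Caki2+PBRM1. The cytosolic MDH1 had 2139.5, 2087 and 1871 normalized counts in Caki2+Vector and 2012, 1956 and 1932 in Caki2+PBRM1. Both overlapped between groups, with log2 fold changes of -0.072 at an adjusted p of 0.314 and -0.045 at an adjusted p of 0.501, with intervals from -0.18 to 0.033 and from -0.14 to 0.049.

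Malic enzymes convert malate to pyruvate. Both mitochondrial forms, the NAD-dependent ME2 and the NADP-dependent ME3, fell, and the cytosolic NADP-dependent ME1 did not pass the test. ME3 (chromosome 11, 86152150 to 86383678, minus strand) had 57.7, 80.3 and 61.1 normalized counts in Caki2+Vector and 22.7, 33.8 and 21.8 in Caki2+PBRM1. Even the highest Caki2+PBRM1 sample was well below the lowest Caki2+Vector sample, and the log2 fold change was -1.33 with an SE of 0.19 (adjusted p = 4.24e-06). Across the 13 alternatives it ran from -1.52 to -1.18. ME2 (chromosome 18, 48405450 to 48480627, plus strand) had 524, 546 and 509 normalized counts in Caki2+Vector and 434, 444 and 389 in Caki2+PBRM1. Its samples were separated too, with a log2 fold change of -0.32 with an SE of 0.065 (adjusted p = 0.000389). ME1 had 1302, 1221 and 1178 normalized counts in Caki2+Vector and 1209, 1169.7 and 1141 in Caki2+PBRM1. The ME1 values overlapped, with a log2 fold change of -0.072 at an adjusted p of 0.286 and a 95% interval from -0.17 to 0.027.

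Among the enzymes of glutamate and aspartate and the carriers, GLUD1, GOT1 and SLC25A11 fell. GLUD1 encodes glutamate dehydrogenase, which turns glutamate into 2-oxoglutarate in mitochondria (chromosome 10, 88809959 to 88854600, minus strand). It had 2009, 1933 and 2082 normalized counts in Caki2+Vector and 1784, 1789 and 1721 in Caki2+PBRM1. Every Caki2+PBRM1 sample was lower, with a log2 fold change of -0.19 with an SE of 0.042 (adjusted p = 0.00119). Its intronless copy GLUD2 also fell, with -0.29 at an adjusted p of 0.0101, but reads of these near-identical genes may have been split between them, and without Caki2+Vector replicate C or Caki2+PBRM1 replicate B GLUD2 had -0.22 (adjusted p = 0.0701) and -0.23 (adjusted p = 0.0813). GOT1, the cytosolic aspartate aminotransferase (chromosome 10, 101156627 to 101190381, minus strand), had 673, 683 and 664 normalized counts in Caki2+Vector and 586, 589 and 582 in Caki2+PBRM1. These samples were tightly grouped, with a log2 fold change of -0.20 with an SE of 0.055 (adjusted p = 0.00607). The mitochondrial GOT2 had 1051, 1051 and 1045 normalized counts in Caki2+Vector and 1008, 969 and 976 in Caki2+PBRM1. Its groups did not overlap, but the log2 fold change of -0.092 at an adjusted p of 0.153 did not pass. SLC25A11, the carrier that exchanges 2-oxoglutarate for malate (chromosome 17, 4840425 to 4843348, minus strand), had 335, 342 and 355 normalized counts in Caki2+Vector and 264, 322 and 298 in Caki2+PBRM1. The log2 fold change came to -0.23 with an SE of 0.077 (adjusted p = 0.0269), and the call did not hold in 5 of the 13 alternatives. It was -0.22 (adjusted p = 0.121) by DESeq2, -0.15 (adjusted p = 0.203) and -0.24 (adjusted p = 0.0628) without Caki2+PBRM1 replicate A or C, and -0.23 (adjusted p = 0.057) and -0.20 (adjusted p = 0.081) without Caki2+Vector replicate B or C. SLC25A1, which exports citrate to the cytosol, had 649, 697 and 681 normalized counts in Caki2+Vector and 803, 712 and 720.1 in Caki2+PBRM1. All Caki2+PBRM1 values were higher, but its log2 fold change of 0.14 at an adjusted p of 0.0693 did not pass.

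Mitochondrial members were then set against cytosolic members. Of 27 mitochondrial genes 10 fell, 2 rose and 15 did not pass, and of 5 cytosolic genes 1 fell (GOT1) and 4 did not pass. The shares that fell were 37.0% and 20%, beside 13% of all genes tested, and the shares that rose were 7.41% and 0%, beside 16.2%. With 5 genes, the cytosolic share rests on a single call. The median log2 fold change was -0.11 for mitochondrial and -0.072 for cytosolic genes, beside -0.0036 over all genes tested. The cytosolic median was -0.032 without Caki2+Vector replicate A and -0.12 without Caki2+Vector replicate C, so its distance from the mitochondrial median depended on single samples. All 5 cytosolic genes were below 0, and so were 20 of the 27 mitochondrial genes, beside 50.6% of all genes tested. Without Caki2+Vector replicate A, however, the value of IDH1 was 0.049 (adjusted p = 0.517). The normalized counts of the mitochondrial genes summed to 22078, 22240 and 22079 in Caki2+Vector and 20776, 20745 and 20487 in Caki2+PBRM1. Those of the cytosolic genes summed to 5721, 5515 and 5119 in Caki2+Vector and 5264, 5215 and 5011 in Caki2+PBRM1. On this scale the mitochondrial sums did not overlap between groups, while the cytosolic sums did, through Caki2+Vector replicate C alone. The overlap belongs to this scale. As shares of the reads on genes, the cytosolic sums were lower in every Caki2+PBRM1 sample too. The margin was narrow between Caki2+Vector replicate C (7312955 reads, size factor 0.834) and Caki2+PBRM1 replicate A (8417615 reads, size factor 0.923). The difference between the compartments was not tested over genes, since the genes of a compartment are not replicates and only 5 are cytosolic. Without Caki2+Vector replicate A, 2 cytosolic genes fell, with ACO1 in addition to GOT1. That fit called 4154 of all genes, against 3886 in the main fit.

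**Figure D2:**
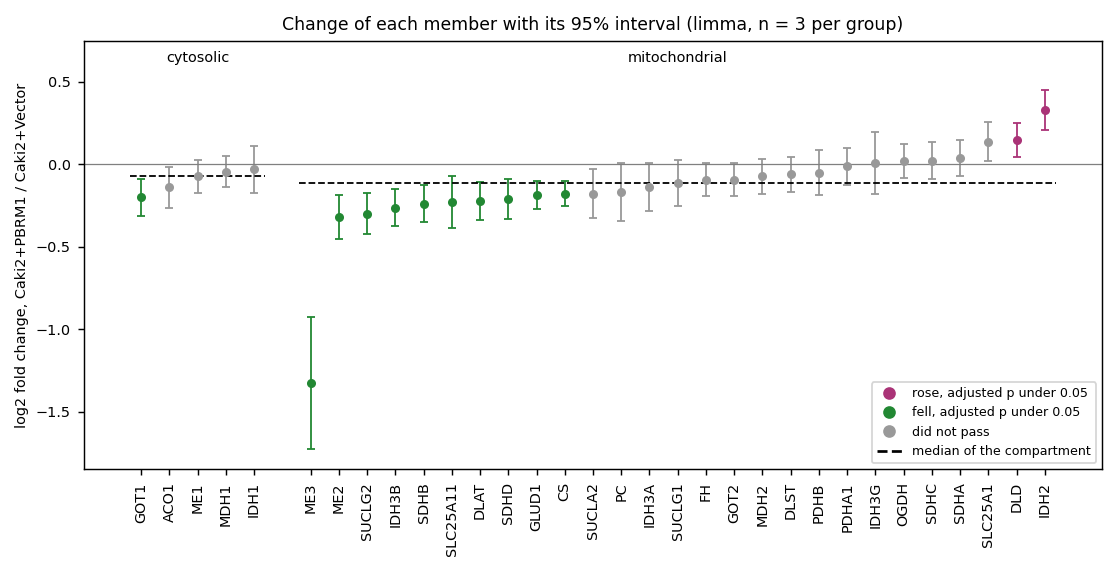
Points are limma log2 fold changes of Caki2+PBRM1 over Caki2+Vector (n = 3 per group) with unadjusted 95% intervals, sorted within the cytosolic and mitochondrial genes, and the dashed lines are the medians, -0.072 and -0.11. ME3 at -1.33 and IDH2 at 0.33 mark the ends of the mitochondrial range, and GOT1 is the cytosolic gene past the threshold.

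Pairs of enzymes that run the same reaction in the cytosol and in mitochondria allow a comparison within each sample, because the size factor nearly cancels in their ratio (1 was added to each normalized count, which matters most for the low counts of ME3). Percent differences of ratios and of genes are taken from mean log2 values. The IDH1-to-IDH2 ratio of normalized counts was 2.05, 1.94 and 1.70 in Caki2+Vector and 1.44, 1.51 and 1.47 in Caki2+PBRM1. It was lower in all Caki2+PBRM1 samples, a difference of -22.1%, where IDH2 rose and IDH1 did not pass the test. The malic enzymes differed in the other direction. The ME1-to-ME2 ratio was 2.48, 2.23 and 2.31 in Caki2+Vector and 2.78, 2.63 and 2.92 in Caki2+PBRM1, and the ME1-to-ME3 ratio was 22.2, 15 and 19 in Caki2+Vector and 50.9, 33.7 and 50 in Caki2+PBRM1. Both were higher in every Caki2+PBRM1 sample, by 18.6% and 138.5%. The GOT1-to-GOT2 ratio was 0.641, 0.651 and 0.636 in Caki2+Vector and 0.582, 0.609 and 0.597 in Caki2+PBRM1. The groups differed by -7.26% without overlap, with GOT1 having the more negative fold change. The MDH1-to-MDH2 ratio overlapped between the groups, at 2.30, 2.02 and 1.91 in Caki2+Vector and 2.07, 2.16 and 2.09 in Caki2+PBRM1. An exact two-sided permutation test over samples gave p = 0.1 for each of the other ratios given, the smallest that 3 against 3 samples allow, and 0.8 for MDH1 to MDH2 (adjusted p = 0.12 and 0.8 over the 6 ratios computed), so none could pass 0.05. Among these pairs without overlap, the cytosolic share was higher in Caki2+PBRM1 for both malic enzyme pairs and lower for IDH1 to IDH2 and for GOT1 to GOT2.

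**Figure D3:**
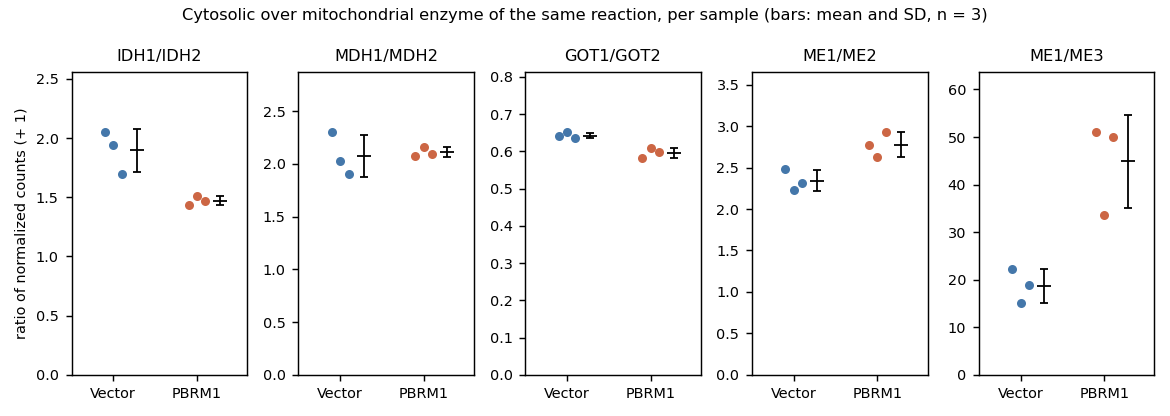
Each panel plots the ratio of the normalized counts (+ 1) of a cytosolic enzyme to its mitochondrial partner in the 6 samples, with the mean and SD of each group (n = 3) beside the points and all axes starting at 0. IDH1/IDH2 and GOT1/GOT2 are lower in Caki2+PBRM1, ME1/ME2 and ME1/ME3 higher, and MDH1/MDH2 overlaps.

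The promoters of the isocitrate dehydrogenase and malic enzyme genes are shown because these pairs held the largest differences in ratio. Each is the 250 bases before the start of the Ensembl canonical transcript, read from GRCh37 and written 5′ to 3′ on the strand of the gene. The IDH1 window lies wholly inside the annotated gene (chromosome 2, 209100953 to 209130798), and the last bases of the IDH2, ME2 and ME3 windows lie inside theirs, because other transcripts start earlier. Capitals mark ACGTG or GCGTG on either strand (CACGT or CACGC when read here), the core letters to which HIF binds in hypoxia-response elements.
IDH1 promoter, chr2:209119796-209120045, minus strand: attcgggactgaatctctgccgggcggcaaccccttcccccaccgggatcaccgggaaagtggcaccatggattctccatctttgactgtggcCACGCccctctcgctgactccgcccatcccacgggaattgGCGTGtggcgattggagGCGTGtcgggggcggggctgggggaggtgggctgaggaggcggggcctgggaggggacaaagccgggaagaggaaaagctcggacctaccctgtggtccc
IDH2 promoter, chr15:90645701-90645950, minus strand: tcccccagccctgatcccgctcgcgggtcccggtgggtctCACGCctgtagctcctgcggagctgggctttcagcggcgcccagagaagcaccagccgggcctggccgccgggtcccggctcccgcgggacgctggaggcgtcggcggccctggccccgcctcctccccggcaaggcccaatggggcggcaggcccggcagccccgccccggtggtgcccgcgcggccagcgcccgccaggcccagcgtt
ME1 promoter, chr6:84140771-84141020, minus strand: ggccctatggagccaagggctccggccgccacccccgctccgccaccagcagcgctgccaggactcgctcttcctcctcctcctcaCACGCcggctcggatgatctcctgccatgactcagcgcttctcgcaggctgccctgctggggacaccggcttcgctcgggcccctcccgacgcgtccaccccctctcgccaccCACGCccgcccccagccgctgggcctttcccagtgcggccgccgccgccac
ME2 promoter, chr18:48405238-48405487, plus strand: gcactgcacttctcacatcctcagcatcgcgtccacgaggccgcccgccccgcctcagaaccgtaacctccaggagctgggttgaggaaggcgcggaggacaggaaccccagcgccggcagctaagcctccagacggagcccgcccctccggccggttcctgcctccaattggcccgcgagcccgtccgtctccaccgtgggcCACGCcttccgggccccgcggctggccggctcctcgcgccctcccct
ME3 promoter, chr11:86383659-86383908, minus strand: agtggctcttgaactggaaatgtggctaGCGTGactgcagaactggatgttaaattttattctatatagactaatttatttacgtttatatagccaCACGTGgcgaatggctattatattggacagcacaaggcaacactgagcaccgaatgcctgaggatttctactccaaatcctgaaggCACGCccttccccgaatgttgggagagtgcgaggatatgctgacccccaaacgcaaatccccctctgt

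Promoters of both directions held these letters. IDH2, which rose, had GCGTG once, IDH1 3 times, ME1 2 times and ME2 once. ME3, which fell, had GCGTG 2 times and the palindrome CACGTG, which counts as ACGTG on both strands. The ME3 window was poor in G and C, at 46% with 9 CpG dinucleotides, where the 32 members had medians of 67% and 22 and the other 4 promoters shown had at least 66.4% and 17. ACGTG was in 7 of the 32 member promoters (21.9%), beside 23.3% of 11587 promoters of tested genes and 20.5% of all 19867 protein-coding promoters. GCGTG was in 21 of 32 (65.6%), beside 47.7% and 40.4%. Both strands were searched. The palindromic motif of NRF1, a factor known for nuclear genes of mitochondrial proteins, was in the SDHD promoter alone (3.12%, beside 2.06% and 1.48%). The ETS-family motif CCGGAAGT was in IDH3B, DLST, SDHD and MDH2 (12.5%, beside 7.23% and 5.12%). A match says only that the letters are present in the window.

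The neighbouring genes of the pathway, a list of 46, covered the control of pyruvate dehydrogenase, assembly factors, transaminases, carriers and enzymes that make or use acetyl-CoA, lactate or glutamate. Of 42 that could be tested, 5 rose and 7 fell, shares of 11.9% and 16.7% beside 16.2% and 13% of all genes tested, and their median log2 fold change was -0.046. Without Caki2+PBRM1 replicate A or B the number that fell was 4, in fits that called 2915 and 2882 of all genes, against 3886 in the main fit. The clearest changes lay at the entry of pyruvate. PDK1, a kinase that switches pyruvate dehydrogenase off and a well-known HIF target (chromosome 2, 173420101 to 173473397, plus strand), had 559, 496 and 579 normalized counts in Caki2+Vector and 850.3, 836 and 786 in Caki2+PBRM1. PDK3, another kinase of the family (chromosome X, 24483361 to 24568583, plus strand), had 662, 591 and 589.7 normalized counts in Caki2+Vector and 877, 878 and 933 in Caki2+PBRM1. For both kinases every Caki2+PBRM1 sample was above every Caki2+Vector sample. Their log2 fold changes were 0.60 with an SE of 0.06 (adjusted p = 5.08e-09) for PDK1 and 0.55 with an SE of 0.057 (adjusted p = 9.06e-09) for PDK3, and neither lost its call in any of the 13 alternatives. PDK2 and PDK4 had 0.073 at an adjusted p of 0.563 and 0.20 at an adjusted p of 0.328. The phosphatase gene PDP1, whose product switches the complex back on, had 324, 292 and 310.4 normalized counts in Caki2+Vector and 269.7, 262 and 274 in Caki2+PBRM1. The log2 fold change came to -0.20 with an SE of 0.075 (adjusted p = 0.0457), but the call did not hold in 7 of the 13 alternatives, among them DESeq2, with -0.20 (adjusted p = 0.168), and the fits without Caki2+Vector replicate A or C, with -0.16 (adjusted p = 0.107) and -0.19 (adjusted p = 0.0911), and without Caki2+PBRM1 replicate A, B or C, with -0.20 (adjusted p = 0.0987), -0.18 (adjusted p = 0.147) and -0.21 (adjusted p = 0.0876). The genes of the mitochondrial pyruvate carrier, MPC1 and MPC2, had 0.10 at an adjusted p of 0.704 and 0.033 at an adjusted p of 0.652. LDHA, the lactate dehydrogenase subunit that favors lactate, rose with a log2 fold change of 0.24 with an SE of 0.028 (adjusted p = 7.88e-08), which was 0.098 (adjusted p = 0.00681) with quantile normalization.

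GPT2, the mitochondrial alanine aminotransferase that yields 2-oxoglutarate from glutamate, rose, with 169, 133 and 163 normalized counts in Caki2+Vector and 210.1, 207 and 225 in Caki2+PBRM1. Its groups were apart, with a log2 fold change of 0.47 with an SE of 0.098 (adjusted p = 0.000481). SDHAF1, an assembly factor of SDH that helps insert the iron-sulfur clusters of SDHB, had 65.3, 80.3 and 51.5 normalized counts in Caki2+Vector and 96.4, 89.8 and 83.9 in Caki2+PBRM1. It rose, with a log2 fold change of 0.47 with an SE of 0.15 (adjusted p = 0.0175), while SDHB fell, but DESeq2 gave 0.44 (adjusted p = 0.11) and the fits without Caki2+Vector replicate C and Caki2+PBRM1 replicate A or B gave 0.31 (adjusted p = 0.126), 0.42 (adjusted p = 0.0902) and 0.47 (adjusted p = 0.0543).

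Among the neighbours that fell were genes of acetyl-CoA, NADPH and aspartate handling. Other listed genes that handle acetyl-CoA or aspartate did not pass the test. The acetyl-CoA synthetases ACSS2 (cytosolic) and ACSS1 (mitochondrial) fell together, with -0.35 at an adjusted p of 0.00805 and -0.26 at an adjusted p of 0.00677, and ACSS1 had -0.22 (adjusted p = 0.055) without Caki2+PBRM1 replicate A. NNT, which makes mitochondrial NADPH at the expense of the proton gradient, had a log2 fold change of -0.18 at an adjusted p of 0.00664. SLC25A12, an aspartate-glutamate carrier of the malate-aspartate shuttle, had -0.23 at an adjusted p of 0.0392, a call that did not hold in 7 of the 13 alternatives, among them DESeq2, with -0.23 (adjusted p = 0.162), and the fits without Caki2+Vector replicate B or C, with -0.19 (adjusted p = 0.139) and -0.23 (adjusted p = 0.0625), and without Caki2+PBRM1 replicate A, B or C, with -0.18 (adjusted p = 0.165), -0.24 (adjusted p = 0.0764) and -0.26 (adjusted p = 0.0601).

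**Figure D4:**
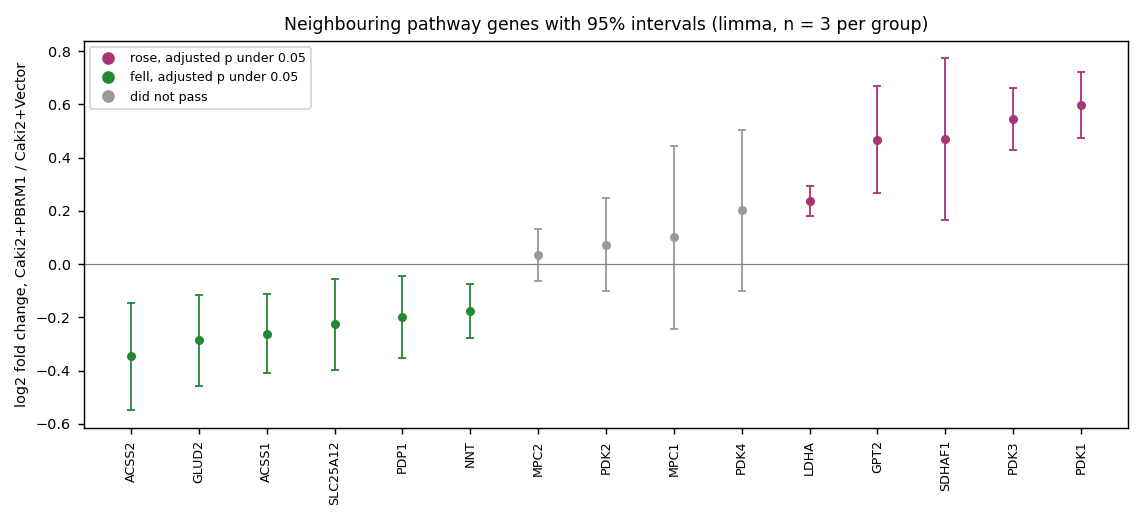
Points are limma log2 fold changes (n = 3 per group) with unadjusted 95% intervals for the 15 neighbouring genes whose fold changes are given in the text, sorted by value. PDK1 at 0.60 and PDK3 at 0.55 lie highest, and ACSS2 at -0.35 lies lowest of those plotted.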

How the data were processed

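PolyA RNA of 3 Caki2+Vector and 3 Caki2+PBRM1 samples was sequenced. Per the labels and the study's methods, the authors removed adapter, low-quality and ribosomal reads, aligned the rest to hg19 with STAR, counted genes with HTSeq and normalized with DESeq2 (versions not given in the sources used here). The deposited signal of a gene is its normalized count, the reads divided by a size factor per sample. Every value became a whole number of reads within 0.01 when multiplied by its size factor, and these recovered reads (7312955 to 10835355 per sample) gave the depth.

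Groups came from the labels. The study describes the samples of a group as biological replicates, but the labels do not say whether they are separate cultures. The p-values set the group difference against the spread between these samples, which limma moderates across genes. They may not extend to new cultures or newly made lines. The main test was limma 3.58.1 (trend, robust; R 4.3.3) on log2(normalized count + 1), for 13303 of 25369 genes with at least 10 normalized counts in at least 3 samples, with Benjamini-Hochberg adjustment and a threshold of 0.05. Fold changes are on that scale and understate changes of low genes. Alternatives were edgeR 4.0.16 and DESeq2 1.42.0 on the recovered reads, a pseudocount of 4, quantile normalization, no filter, a filter in every sample, a replicate block, and leaving out each sample. The script was tested on simulated data. Ratios of counts (+ 1) were compared by exact permutation tests.

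Positions, transcript lengths and promoters were taken from GENCODE for GRCh37, and all 32 members matched. The members and lists were chosen with earlier results of these data known. Values per sample were given for members past the threshold and for partners of the isoenzyme ratios, and neighbouring genes were named when past the threshold, with PDK1 to PDK4, MPC1 and MPC2 in any case. A few neighbouring genes counted in the list, and a ratio that needs such a gene, are not reported here. The sample values of PC, FH, SUCLA2 and SLC25A1 and the ratios within complexes were added after the values were seen. In the files, 2 neighbouring genes carry older symbols (ACN9 for SDHAF3, C6orf57 for SDHAF4), and GPT, PCK1, LDHD and SLC25A18 were too low to test.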

Additional observations from a re-analysis of the deposited data

How the results depend on the processing

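Of the 13 members past the threshold, 10 stayed past it in all 13 alternatives, and no member or neighbouring gene followed here that was called changed direction. The exceptions were DLD, SLC25A11 and SDHD, whose values are given with the results. The number of members that rose was 1 by DESeq2 and 1 with quantile normalization, against 2, because DLD no longer passed. Leaving out 1 sample at a time gave 1 to 2 members that rose, 10 to 13 that fell, 1 to 2 cytosolic members past the threshold and 4 to 7 neighbouring genes that fell. In the same fits from 2798 to 4154 of all genes were called, against 3886 in the main fit. The median log2 fold change of mitochondrial members ran from -0.13 to -0.09034 and that of cytosolic members from -0.12 to -0.032. Across all genes DESeq2 called 2553 where limma called 3886 and edgeR 4030, and the cause was not tested. Quantile normalization moved the median of all genes to -0.025, and 4021 genes were called with it.

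The replicate letters did not pair the samples: deviations of same-lettered samples from their group means had correlations across genes from -0.0077 to 0.014. With the replicate block, 2 members rose and 11 fell, and 4107 genes passed in all. ME3 had the lowest normalized counts of the members, and no test of depth was run.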
